A study of Mus musculus with 6 samples.

Results

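The enzymes and carriers that take up glucose, break it down to lactate or pass it through the pentose phosphate pathway were followed in long-term hematopoietic stem cells of mouse bone marrow (LT-HSCs). The set was a list of 32 gene symbols, matched by name. The match used no measured value, but the list was drawn up with earlier results of these data known. In a table of 55487 genes these symbols stood on 33 rows, because Aldoa had 2. They comprised 2 glucose transporters, 19 glycolytic enzymes and regulators, 4 genes of lactate production and transport and 7 genes of the pentose phosphate branch. The series compared bulk RNA from sorted LT-HSCs of unirradiated wild-type mice given saline (3 libraries) or carnosine (3 libraries), and so asked what carnosine changes in these cells without irradiation. Carnosine is the dipeptide of beta-alanine and histidine. Cells from bone marrow had been sorted as lineage-negative, Sca-1+, c-Kit+, Flk2- and CD34-. Dose and duration of the treatment are not given in the labels used here, nor are age, sex and number of mice. Nothing in the labels says that the libraries of a group came from separate mice, so p-values measure only the spread between these libraries, which may be technical.

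Glycolysis splits glucose into pyruvate in the cytosol and yields ATP without oxygen, and lactate dehydrogenase then regenerates the NAD+ that the pathway consumes. The pentose phosphate pathway leaves glycolysis at glucose 6-phosphate and supplies NADPH for reductive reactions and ribose for nucleotides. Quiescent LT-HSCs in the marrow are known for relying strongly on glycolysis.

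Totals ranged from 10304539 to 13251332 counts per library, and 3 counts, the most that a count of 0 still allows, were worth 0.226 to 0.291 CPM (counts scaled to the size of the library). All 33 rows passed the filter on low counts, which kept 15298 genes. In edgeR's quasi-likelihood test, 1455 of these genes were higher with carnosine and 1283 lower at an adjusted p under 0.05. All 10 stem cell markers listed had counts, with a summed level of 122 to 134 FPKM (fragments per kilobase of gene length, scaled to library size) in saline and 120 to 135 in carnosine, and 1 of them, Mecom, was called higher (2.85 and 3.24 FPKM). Among them Slamf1, which encodes CD150, was at 0.670 and 0.569 FPKM. RNA of both proteins that the sort had selected against was abundant: Flt3 (Flk2) stood at 132 FPKM in saline and 125 in carnosine, and Cd34 at 87.1 and 87.2. The 4 multipotent progenitor markers listed, which include these genes, summed to 395 to 398 FPKM in saline and 364 to 369 in carnosine. These sums were above those of the 10 stem cell markers. The name LT-HSC thus rests on the labels, and the RNA of these progenitor markers does not bear it out. In bulk RNA, fewer cells of a type and less RNA per cell cannot be told apart.

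Of the 33 rows, 8 were higher with carnosine, which is 24.2% of them against 9.51% of all genes tested. These were Pgk1, Ldha, Slc16a1, Tpi1, Pkm, Eno1, Taldo1 and Hk1. Aldoc alone was lower, against 8.39% of all genes, and 24 rows were not called. In either direction 17.9% of all genes were called. The rises were modest, from 10.7% for Taldo1 to 31.7% for Pgk1. The 3 saline and 3 carnosine values did not overlap for 11 rows with carnosine higher and 2 with carnosine lower, while 19.7% and 19.0% of all genes tested were separated in those directions (38.7% in either). The median log2 fold change over the 33 rows was 0.06, beside 0.00092 over all genes. By branch, the median was -0.04 for uptake (0 of 2 called), 0.08 for glycolysis (5 of 20 higher, 1 lower), 0.24 for lactate genes (2 of 4 higher) and 0.05 for the pentose branch (1 of 7 higher). Summed over their rows, the lactate genes took 386 to 395 CPM in saline and 473 to 476 in carnosine, and the glycolytic rows 3002 to 3070 and 3250 to 3331. The 2 transporters took 265 to 278 CPM and 259 to 263, and the pentose branch 1050 to 1099 and 1106 to 1143. For the lactate, glycolytic and pentose sums each carnosine library was above each saline library, and for the transporter sum each was below. At the nearest, carnosine and saline stood at 263 and 265 CPM for the transporters and at 1106 and 1099 for the pentose branch. Single genes weighed heavily: Ldha averaged 288 CPM in saline and 350 in carnosine, and Tkt 611 and 634. On their own rows, Tkt and each transporter overlapped between groups. Sums of other genes were not compared.

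**Figure D1:**
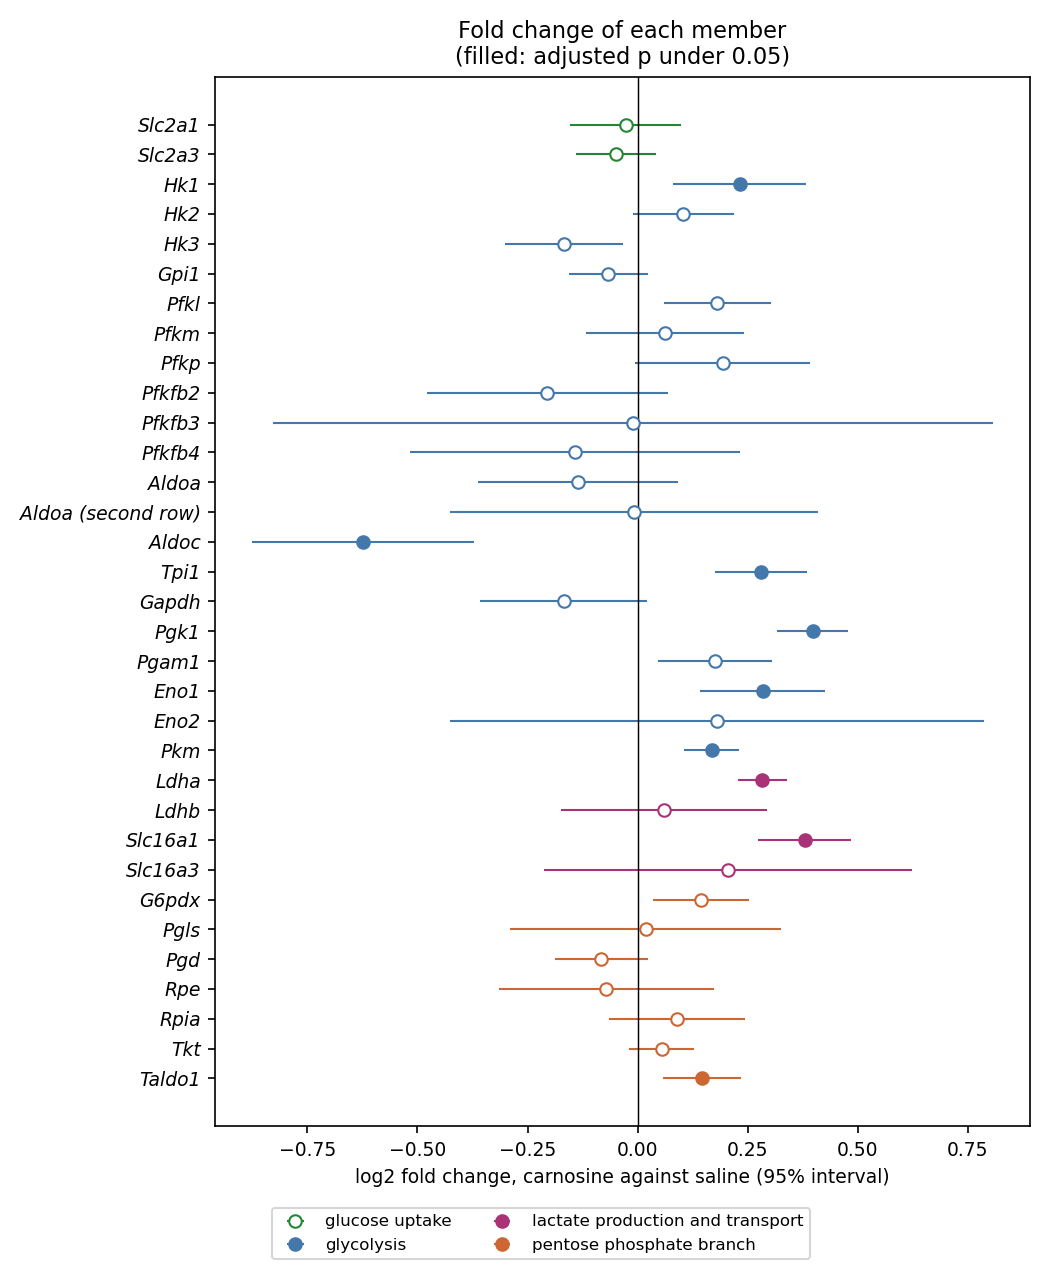
Log2 fold change of each of the 33 rows, carnosine against saline, with its 95% interval (horizontal axis), coloured by branch. Filled points passed the adjusted p of 0.05: the 8 higher rows lie to the right of zero, and Aldoc, at -0.62, is the only filled point to the left.

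The 3 members with the smallest p were Ldha, Pgk1 and Slc16a1, so their promoters are shown. ACGTG and GCGTG are the core letters recognised by hypoxia-inducible factors, which are known to act on glycolytic genes, and CACGTG is the E-box that MYC binds. The sequences are the 250 bases before a RefSeq start in GRCm38.p6, all on the plus strand, with matches to these letters on either strand in capitals.
Pgk1 (chrX:106186850-106187099): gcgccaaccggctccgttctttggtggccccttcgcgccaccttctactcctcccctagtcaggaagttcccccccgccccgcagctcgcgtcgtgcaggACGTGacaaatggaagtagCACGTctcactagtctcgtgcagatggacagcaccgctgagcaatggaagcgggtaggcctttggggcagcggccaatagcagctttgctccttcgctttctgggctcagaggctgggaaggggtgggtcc
Slc16a1 (chr3:104638414-104638663): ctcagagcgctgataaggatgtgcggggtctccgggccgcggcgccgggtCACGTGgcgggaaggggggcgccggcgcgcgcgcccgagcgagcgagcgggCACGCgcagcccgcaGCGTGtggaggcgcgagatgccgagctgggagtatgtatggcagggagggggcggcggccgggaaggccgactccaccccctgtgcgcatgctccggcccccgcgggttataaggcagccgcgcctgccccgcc
Ldha (chr7:46845554-46845803): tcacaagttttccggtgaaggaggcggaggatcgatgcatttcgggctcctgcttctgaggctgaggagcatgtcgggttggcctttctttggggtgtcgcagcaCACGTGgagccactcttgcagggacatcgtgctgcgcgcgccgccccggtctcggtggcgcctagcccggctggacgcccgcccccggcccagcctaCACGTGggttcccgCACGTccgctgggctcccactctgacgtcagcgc
The Ldha window ends at a RefSeq start that lies 4329 bases inside the annotated gene, 1 of its 2 RefSeq starts. The Pgk1 window held ACGTG 2 times. The Ldha window held ACGTG 5 times over both strands, among them 2 copies of CACGTG, which reads ACGTG on either strand. The Slc16a1 window held CACGTG, and GCGTG 2 times. A promoter was matched for 31 of the rows, not for Slc2a3 or the second Aldoa row. ACGTG occurred in 10 of the 31 and GCGTG in 17, against 16.6% and 28.2% of 32851 RefSeq promoters. Either of them occurred in 24, against 38.6%, and CACGTG in 3, against 6.02%. The member windows ranged from 36.4% (Pfkm) to 76.4% (Slc16a1) in GC content, and all 3 motifs contain CG. The background was not matched for GC content and took every RefSeq start, where a member had 1. These shares are therefore no test of enrichment. A match describes letters only, since no binding was measured.

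Glucose enters through the facilitative transporters GLUT1 (Slc2a1) and GLUT3 (Slc2a3), and neither was called. Slc2a1 was at 62.5, 62.0 and 65.1 CPM in saline and at 59.7, 60.8 and 65.6 in carnosine, so the groups overlapped (log2 fold change -0.03, 95% interval -0.15 to 0.10). Slc2a3 was at 202, 216 and 201 CPM in saline and at 204, 201 and 194 in carnosine, also overlapping (-0.05, interval -0.14 to 0.04). On the per-length FPKM scale Slc2a3 made up 62.2% ± 1.43 (SD, n = 3) of their joint level in saline and 61.8% ± 1.81 in carnosine.

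Hexokinases trap glucose in the cell as glucose 6-phosphate. Hk1 (chromosome 10, 62268855 to 62379908), the broadly expressed form bound to mitochondria, read 222, 264 and 263 CPM in saline and 285, 299 and 295 in carnosine. Each carnosine library was above each saline library, and saline replicate 1 was the lowest (log2 fold change 0.23 ± 0.065 SE, edgeR adjusted p = 0.0460). The call sat at the threshold: it was lost with DESeq2 (adjusted p = 0.0563), with upper-quartile scaling (0.0547), on FPKM (0.0756 and 0.0762) and without saline replicate 2 or 3 or any of the carnosine replicates (0.0564 to 0.113). Hk3, a hexokinase typical of myeloid cells, read 105, 95.4 and 95.4 CPM in saline and 84.3, 86.3 and 92.8 in carnosine. Its groups did not overlap, but it missed the threshold (log2 fold change -0.17, interval -0.30 to -0.03, adjusted p = 0.0885). Hk2, the growth-inducible form, was at 132 ± 2.34 CPM (SD, n = 3) in saline and 142 ± 8.69 in carnosine and overlapped. In FPKM, Hk1 took on average the largest share of the 3 hexokinases in saline, 36.3% ± 2.78, with Hk2 at 34.6% and Hk3 at 29.1% ± 2.24. In carnosine the shares were 40.3% ± 1.43, 35.2% and 24.5% ± 0.848. By merged exon length, the order of the other 2 turned: Hk2 took 28.3% and Hk3 34.3% in saline, and 29.0% and 29.1% in carnosine. In FPKM, Hk3 held 27.7% to 31.7% of the family in the saline libraries and 23.6% to 25.3% in the carnosine libraries, which did not overlap. Hk1 ranged from 33.1% to 38.1% in saline and from 39.4% to 42.0% in carnosine, again without overlap.

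Gpi1, which isomerises glucose 6-phosphate to fructose 6-phosphate, was at 410 ± 11.8 CPM in saline and 392 ± 17.2 in carnosine and was not called (log2 fold change -0.07, interval -0.16 to 0.02). Phosphofructokinase commits the sugar to glycolysis. Its liver form Pfkl read 182, 186 and 186 CPM in saline and 195, 225 and 208 in carnosine. The groups did not overlap, and Pfkl lay just outside the threshold (log2 fold change 0.18, interval 0.06 to 0.30, adjusted p = 0.0502). Pfkm, the muscle form, and Pfkp, the platelet form, overlapped between groups, with intervals of -0.12 to 0.24 and -0.01 to 0.39. In FPKM, Pfkl supplied 51.3% ± 1.51 of the family in saline and 53.0% ± 3.75 in carnosine, Pfkm 41.2% and 39.2%, and Pfkp 7.47% and 7.79%.

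The PFKFB enzymes set fructose 2,6-bisphosphate, the main activator of phosphofructokinase. Pfkfb3, the form with the highest kinase activity, read 71.8, 74.7 and 37.5 CPM in saline and 33.4, 72.5 and 76.0 in carnosine. Saline replicate 3 and carnosine replicate 1 were low and the other 4 libraries high, so the spread lay within both groups and not between them. The interval of its log2 fold change, -0.83 to 0.81, was the widest of the 33 rows. Pfkfb2 (16.6 ± 0.895 CPM in saline, 14.4 ± 2.12 in carnosine) and Pfkfb4 (9.56 ± 0.653 and 8.66 ± 1.82) were also not called.

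Aldolase cleaves fructose 1,6-bisphosphate. Aldoc (chromosome 11, 78322968 to 78327781), the form known from brain, read 17.3, 16.7 and 15.8 CPM in saline and 9.54, 12.1 and 10.7 in carnosine. All 3 carnosine libraries were below all saline libraries, and Aldoc fell by 35.1% (log2 fold change -0.62 ± 0.11 SE, adjusted p = 0.00805). Aldoa, the ubiquitous form, read 274, 244 and 298 CPM in saline and 268, 215 and 260 in carnosine, with overlap (log2 fold change -0.13, interval -0.36 to 0.09). Aldoc was the minor aldolase: in FPKM it took 6.08% ± 0.741 of the pair in saline and 4.45% ± 1.03 in carnosine. A second row named Aldoa, on the neighbouring stretch of chromosome 7 from 126800790 to 126809108, held 5.26 ± 0.329 and 5.20 ± 1.08 CPM and was not called.

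**Figure D2:**
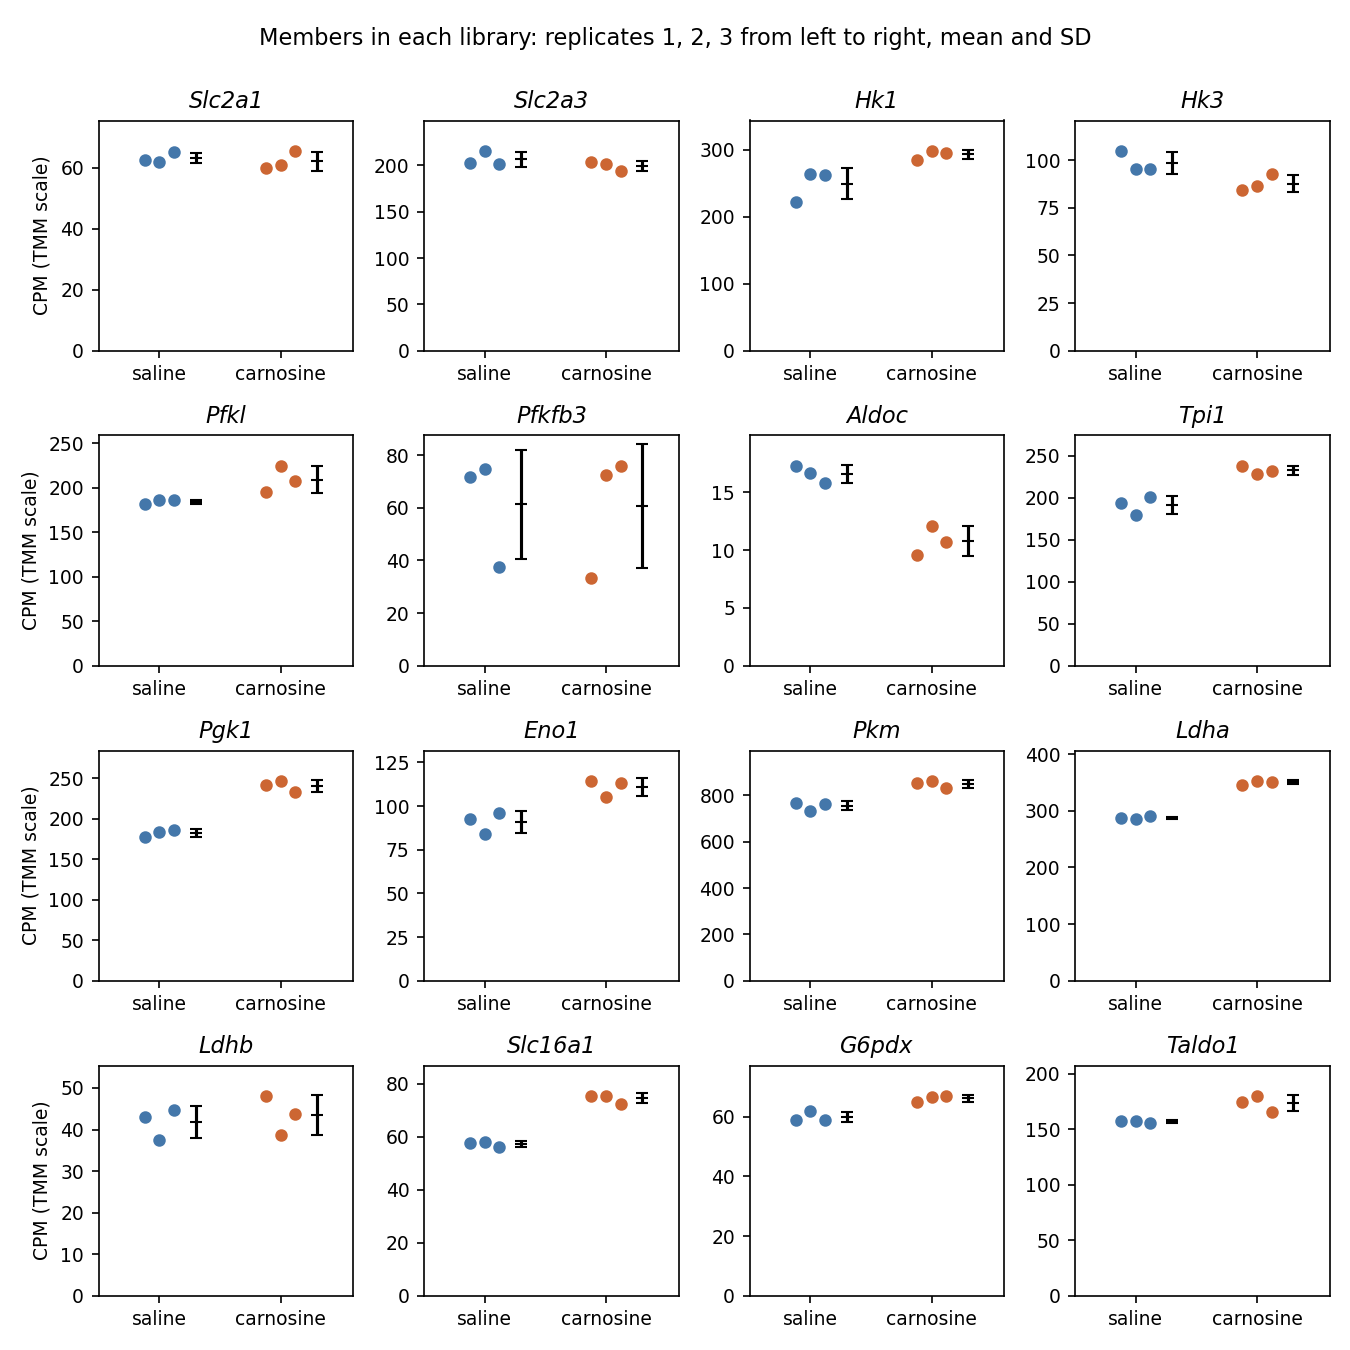
CPM after TMM scaling (vertical axes, each from 0) of 16 members in every library, replicates 1 to 3 from left to right in each group, with mean and SD beside the points. The groups are apart for Hk1, Hk3, Pfkl, Aldoc, Tpi1, Pgk1, Eno1, Pkm, Ldha, Slc16a1, G6pdx and Taldo1. They overlap for Slc2a1, Slc2a3, Pfkfb3 and Ldhb. The 16 are a selection in which separated rows are overrepresented. Of all 33 rows, 11 were separated with carnosine higher and 2 with carnosine lower, against 19.7% and 19.0% of all genes tested.

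Below aldolase the pathway handles triose phosphates and carries them to pyruvate. Tpi1 (chromosome 6, 124810586 to 124814296), which interconverts the 2 triose phosphates, read 194, 180 and 201 CPM in saline and 238, 228 and 231 in carnosine. The groups were apart (log2 fold change 0.28 ± 0.045 SE, adjusted p = 0.00592). Pgk1 (chromosome X, 106187100 to 106203699), the first of the pathway's ATP-forming enzymes, read 177, 184 and 186 CPM in saline and 241, 247 and 233 in carnosine. It had the largest rise of the 33 rows, and the gap between the groups was larger than the range within either (log2 fold change 0.40 ± 0.035 SE, adjusted p = 0.000394). Pkm (chromosome 9, 59656368 to 59679375), the pyruvate kinase that forms the last ATP, read 770, 733 and 763 CPM in saline and 852, 865 and 830 in carnosine. Its rise was small but beyond the spread of the libraries (log2 fold change 0.17 ± 0.027 SE, adjusted p = 0.00559). Eno1 (chromosome 4, 150236721 to 150248879), the enolase of most tissues, read 92.6, 84.2 and 96.2 CPM in saline and 115, 105 and 113 in carnosine (log2 fold change 0.28 ± 0.061 SE, adjusted p = 0.0184). The groups did not overlap, and the call was lost without carnosine replicate 1 (adjusted p = 0.0635) or 3 (0.0596). Pgam1, phosphoglycerate mutase, read 147, 161 and 156 CPM in saline and 174, 164 and 186 in carnosine. It was separated between groups yet not called (log2 fold change 0.18, interval 0.05 to 0.31, adjusted p = 0.0684). Eno2, the neuronal enolase, was low at 3.34 ± 1.13 and 3.81 ± 0.586 CPM. In FPKM, Eno1 made up 97.8% ± 0.859 of the 2 enolases in saline and 97.9% ± 0.402 in carnosine.

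Gapdh, the NADH-forming dehydrogenase between Tpi1 and Pgk1, went against its neighbours on its own row. It read 51.8, 59.1 and 54.1 CPM in saline and 44.2, 50.1 and 52.5 in carnosine, with overlap (log2 fold change -0.17, interval -0.36 to 0.02, adjusted p = 0.198). That row held few of the counts that stood on rows with Gapdh sequence. Mouse Gapdh has many processed pseudogenes, copies of the spliced mRNA inserted elsewhere in the genome. In GENCODE M21, 80.3% of the 75-base windows of the longest coding Gapdh transcript occurred without mismatch in copies, meaning pseudogenes with at least 1 such window or other genes with at least 20% of them. The Gapdh row (chromosome 6, 125161715 to 125166467) held 3608 counts over the 6 libraries, while 116 copies held 55721, or 93.9% of the joint counts. How reads that map to several places were assigned is not stated in the sources used here. If a read was counted at each of its places, the counts on copies would hold repeats and their share would be too high.

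Copies were found for 11 of the 33 rows, 140 copies in all, and for 6 rows they covered at least 10% of the windows: Gapdh, Pgk1 (67.5%), Eno1 (65.4%), Pgam1 (40.6%), Ldhb (16.7%) and Pkm (15.6%). The stretches below, 75 bases of coding sequence each, are examples from a member and its most counted copy. Each was picked for the fewest differences, but at least 1 where possible, so it does not measure how closely they match. Of the 75-base windows of the copy, 91.9% of Gm12070 occurred in Gapdh, 75.2% of Gm4735 in Eno1 and 100% of Pgk1-rs7 in Pgk1. Transcript positions count from 1 at the 5′ end, and capitals mark a base at which the pair differs.
Gapdh, transcript Gapdh-203, bases 591 to 665: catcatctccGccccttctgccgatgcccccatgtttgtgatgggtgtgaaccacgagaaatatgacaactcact
Gm12070, within chr11:26786633-26787634: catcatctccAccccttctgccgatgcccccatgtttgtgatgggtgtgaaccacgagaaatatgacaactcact
Eno1, transcript Eno1-202, bases 1060 to 1134: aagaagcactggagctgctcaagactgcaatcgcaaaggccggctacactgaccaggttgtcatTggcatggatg
Gm4735, within chr2:80837141-80838442: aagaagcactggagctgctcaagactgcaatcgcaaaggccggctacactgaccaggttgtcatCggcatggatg
Pgk1, transcript Pgk1-201, bases 741 to 815: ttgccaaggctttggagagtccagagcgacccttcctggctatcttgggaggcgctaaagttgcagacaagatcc
Pgk1-rs7, within chr12:10898986-10900240: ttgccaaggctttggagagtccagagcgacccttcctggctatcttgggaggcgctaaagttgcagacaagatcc
Pgk1-rs7 was identical to Pgk1 over all of its 1255 bases and held 11904 counts against 14733 on Pgk1.

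Counts of the member and its copies were therefore also merged into 1 row, an alternative chosen after seeing the data. A read counted at several places would enter such a row more than once. Copies that share few windows with the member were pooled too. Merged Gapdh read 809, 819 and 836 CPM in saline and 892, 884 and 873 in carnosine, with the groups apart. Its direction turned, with a log2 fold change of 0.10 ± 0.021 SE (adjusted p = 0.0151, against -0.17 and 0.198 for the row alone). Merged Pgk1 read 331, 332 and 331 CPM in saline and 442, 442 and 428 in carnosine, the same change as on its own row (0.40, adjusted p = 6.39e-05). Merged Eno1 was no longer called (0.17, adjusted p = 0.124). There, the copy Eno1b read 57.3, 58.6 and 59.8 CPM in saline and 69.9, 66.7 and 5.84 in carnosine, so carnosine replicate 3 lacked most of its counts. Merged Pkm (0.19, adjusted p = 0.00316) and Ldha (0.29, adjusted p = 0.000235) kept their calls. With copies merged, 8 rows were higher and 1 lower, against 9.52% and 8.38% of all genes in that fit, Gapdh having joined the higher rows and Eno1 left them. Of 30 copies that passed the filter, 4 were called higher, against 9.51% of all genes, and 1 lower, against 8.39%. The copies higher were Gm12070 of Gapdh (323 ± 3.93 CPM in saline, 388 ± 9.67 in carnosine), Pgk1-rs7 (147 ± 4.16 and 195 ± 3.39), Gm4735 of Eno1 (154 ± 2.54 and 183 ± 0.591) and Gm6560 of Pkm (106 ± 6.13 and 135 ± 4.07). Copies of Gapdh did not all move alike: Gm5559 was at 180 ± 11.3 and 171 ± 2.09 CPM and was not called, and Gm4335 fell by 1.52 on the log2 scale (6.54 ± 0.752 and 2.30 ± 0.365 CPM, adjusted p = 0.0014).

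**Figure D3:**
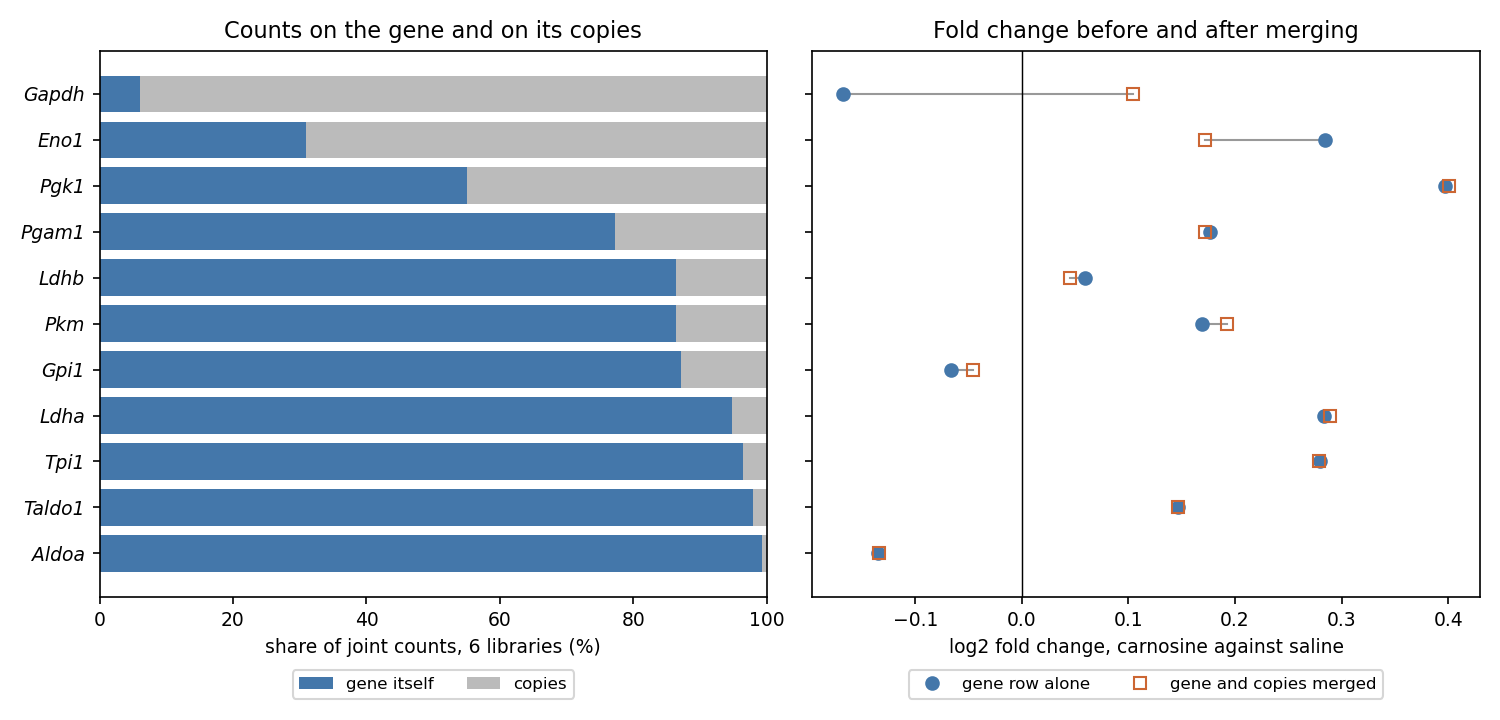
Left, the share (%) of the joint counts of a member and its copies that stood on the member's own row or on copies, over 6 libraries. Right, the log2 fold change of the member's row alone (filled circles) and of member and copies merged (open squares): Gapdh moves from -0.17 to 0.10 and Eno1 from 0.28 to 0.17, while Pgk1 stays at 0.40.

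Lactate dehydrogenase reduces pyruvate to lactate. Ldha (chromosome 7, 46841475 to 46855627), the subunit that favours lactate formation, read 287, 286 and 290 CPM in saline and 346, 353 and 350 in carnosine. The libraries of each group were within a few CPM of each other and the groups far apart (log2 fold change 0.28 ± 0.024 SE, adjusted p = 0.000322). Ldhb, the subunit known for the reverse reaction, read 43.0, 37.4 and 44.7 CPM in saline and 48.2, 38.6 and 43.7 in carnosine, with overlap (0.06, interval -0.18 to 0.29). In FPKM, Ldha made up 71.3% ± 1.77 of the pair in saline and 74.4% ± 2.31 in carnosine, and these ranges overlapped. Slc16a1 (chromosome 3, 104638668 to 104658462) encodes the monocarboxylate transporter MCT1, which carries lactate and pyruvate across the membrane. It read 57.7, 58.1 and 56.1 CPM in saline and 75.6, 75.6 and 72.4 in carnosine, without overlap (log2 fold change 0.38 ± 0.045 SE, adjusted p = 0.00156). Slc16a3, the lactate exporter MCT4, was at 5.12 ± 1.10 CPM in saline and 5.85 ± 0.512 in carnosine and was not called (interval -0.21 to 0.62). Slc16a1 made up 95.7% ± 0.843 of the 2 transporters' FPKM in saline and 96.2% ± 0.397 in carnosine.

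**Figure D4:**
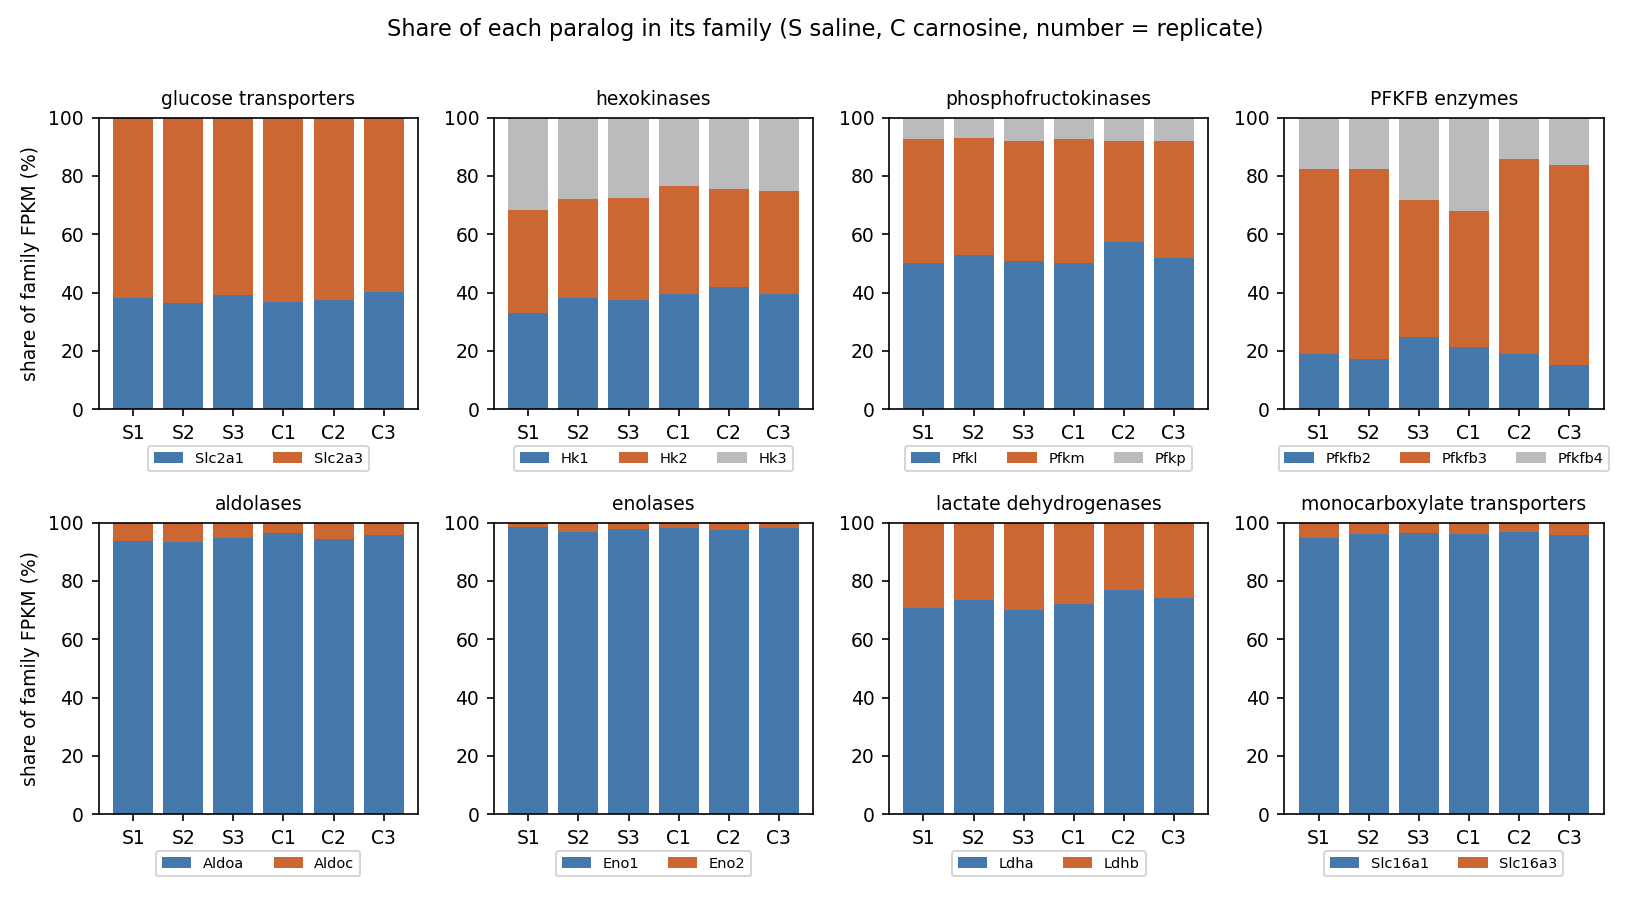
Share (%) of each paralog in its family's summed FPKM, 1 bar per library (S saline, C carnosine, the number being the replicate). The hexokinase bars shift from Hk3 towards Hk1 in carnosine, and Aldoa, Eno1 and Slc16a1 each take nearly all of their family in every library.

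In the oxidative arm of the pentose phosphate pathway, G6pdx, the NADPH-forming enzyme that opens it, read 58.8, 62.1 and 59.1 CPM in saline and 64.8, 66.8 and 67.2 in carnosine. The groups were apart, and the gene missed the threshold (log2 fold change 0.14, interval 0.03 to 0.25, adjusted p = 0.0739). Pgls, the lactonase of the arm (interval -0.29 to 0.32), and Pgd, its NADPH-forming dehydrogenase (113 ± 2.25 CPM in saline, 106 ± 5.09 in carnosine, interval -0.19 to 0.02), were not called. In the non-oxidative arm, which returns pentoses to glycolysis, Taldo1 (transaldolase, chromosome 7, 141392199 to 141402968) read 157, 158 and 156 CPM in saline and 175, 180 and 166 in carnosine. It was separated between groups (log2 fold change 0.15 ± 0.038 SE, adjusted p = 0.0366). This call was lost with DESeq2 (adjusted p = 0.216), with upper-quartile scaling (0.0560) and without any of the saline replicates or carnosine replicate 1 or 2 (0.0835 to 0.102). Tkt, transketolase, was at 611 ± 23.1 CPM in saline and 634 ± 11.7 in carnosine, overlapping (0.05, interval -0.02 to 0.13). The isomerase Rpia (59.0 ± 3.59 and 62.8 ± 3.54 CPM) and the epimerase Rpe (19.7 ± 2.18 and 18.8 ± 1.45) were not called.

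Compared per length on their own rows, Pkm had the highest level of the members, at 102 ± 2.71 FPKM in saline and 115 ± 2.35 in carnosine. Tkt (63.5 and 65.7), Pgk1 (59.7 and 78.4), Pgam1 (55.1 and 62.0) and Taldo1 (53.5 and 59.0) followed. This order depended on how length and copies were taken. The lengths implied by the deposited counts and FPKM equalled the sum of all distinct exons of all transcripts of a gene, overlapping exons counted repeatedly, to within 1% for 97.9% of 11217 genes with over 50 counts in every library. Divided by merged exon length instead, Aldoa was next below Pkm in saline, at 93.4 against 151 CPM per kilobase, followed by Ldha (86.9), Tkt (83.0) and Pgk1 (81.3). With counts of copies added to the member, on the same lengths, Gapdh came to 199 CPM per kilobase in saline, above Pkm at 173 and Pgk1 at 148. Reads counted at several places would raise these merged values.

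With offsets for gene length and GC content, also added after seeing the data, 11 members were higher and 1 lower, against 11.6% and 8.23% of all genes. Pfkl, Pgam1 and G6pdx were then among the higher.

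Of 71 other genes of sugar metabolism, 46 were tested, and 5 were higher and 1 lower, against 9.51% and 8.39% of all genes. Ldhc, Fbp2 and G6pc had 0 counts in every library. Downstream of the pentose branch, the ribose-phosphate pyrophosphokinases, which start nucleotide synthesis, were both higher. Prps1 read 69.9, 73.2 and 66.7 CPM in saline and 90.4, 88.2 and 91.8 in carnosine (log2 fold change 0.37, adjusted p = 0.00254). Prps2, the most abundant of the other pentose genes, read 135, 145 and 148 CPM in saline and 177, 169 and 165 in carnosine (0.25, adjusted p = 0.00998). Pdk1, the kinase that shuts pyruvate dehydrogenase, read 140, 136 and 137 CPM in saline and 173, 168 and 164 in carnosine, without overlap (0.29, adjusted p = 0.00146). Gbe1, the glycogen branching enzyme, rose from 36.9 ± 1.37 to 44.0 ± 2.35 CPM (0.25, adjusted p = 0.0330). Pklr, the liver and red cell pyruvate kinase, rose from 3.84 ± 0.633 to 6.79 ± 1.23 CPM (0.84, adjusted p = 0.0239), and Slc2a6, a hexose transporter, fell from 2.76 ± 0.656 to 1.08 ± 0.180 (-1.34, adjusted p = 0.0134). The most abundant genes of the other roles were not called: the transporter Slc2a9 (adjusted p = 0.0526), the phosphatases Minpp1 (0.0792) and G6pc3 (0.414), the MCT1 partner Emb (0.989), brain glycogen phosphorylase Pygb (0.766), the kinase Pdk3 (0.0789) and Txnip, an inhibitor of glucose uptake (0.387).

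Markers of other blood cells also differed between the groups, and their part in these results was not tested. No marker was at 0 in all libraries, and all markers of every list had counts. The summed level of the 8 erythroid markers was 46.4 to 54.9 FPKM in saline and 135 to 143 in carnosine, with 4 called higher, led by Hbb-bt (22.0 and 68.3 FPKM). The 8 B and plasma cell markers summed to 45.8 to 66.0 and 100 to 168 FPKM, with Jchain higher (37.2 and 124 FPKM) and 3 others lower. Immunoglobulin rows took 0.193% to 0.195% of counts in saline and 0.582% to 0.587% in carnosine. Without these rows, the test called 8 members higher and 1 lower, against 8.73% and 8.06% of all genes. The 8 neutrophil markers summed to 181 to 185 and 116 to 123 FPKM, with Mpo (107 and 63.3 FPKM) and Elane (34.5 and 22.3) lower. Prtn3 was at 37.9 and 29.3 FPKM and not called. The granule and calgranulin genes Ngp, Ltf, S100a8, S100a9 and Camp were low in both groups, with S100a9 at 1.53 and 2.01 FPKM and Ltf at 0.311 and 0.642, and none of them was called. The 4 multipotent progenitor markers summed to 395 to 398 and 364 to 369 FPKM, with Dntt lower (139 and 114 FPKM). Monocyte and macrophage markers summed to 17.3 to 21.2 and 13.2 to 14.7 FPKM with 1 of 6 lower, Csf1r, and Cd68 leading. Megakaryocyte markers (16.4 to 17.8 and 15.1 to 17.5), T cell markers (2.87 to 3.32 and 2.51 to 2.95) and stromal and endothelial markers (13.9 to 14.5 and 12.5 to 13.5) were low in both groups, with Itga2b, Cd4 and Pecam1 leading. In those lists Pf4, Cd4 and Pecam1 were called lower and Cxcl12 higher.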

How the data were processed

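Poly-A RNA of 6 libraries was sequenced as stranded pairs, per the labels' protocols. Per the file headers, the deposited table holds a read count and an FPKM for each gene in each library. HISAT2, StringTie, edgeR, CASAVA 1.8 and GRCm38 are named in the submitters' processing notes. The annotation, the strand setting and the treatment of multiply mapped reads are not stated in these sources, so copies of a gene can share its reads. Gene positions are those of the deposited table, and 55227 of 55487 identifiers were found in GENCODE M21.

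Counts were filtered with filterByExpr and scaled by TMM (factors 0.998 to 1.003). They were tested with edgeR 4.0.16 in R 4.3.3 (quasi-likelihood, two-sided, Benjamini-Hochberg over 15298 genes, threshold 0.05). Levels are CPM as mean ± SD, n = 3. Every member is named. Other sugar genes are named if called or most abundant in their role, and a marker list by its most abundant gene, to which called or sort-related markers were added after their values were seen. The members and lists were chosen with earlier results of these data known. Alternatives were DESeq2 1.42.0, limma 3.58.1 (voom, and trend on log2(FPKM + 1 or 0.1)), other scalings, filters and thresholds, a replicate block, each library left out, and immunoglobulin rows left out. Copies merged, length and GC offsets, and merged exon lengths were added after seeing the data. Each library counted as 1 sample. Replicate libraries of a group differed beyond sampling noise, which does not show that they came from separate mice. All intervals are at 95%, and the limit of 3 counts covers counting error only.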

Additional observations from a re-analysis of the deposited data

How the results depend on the processing

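Over 19 alternatives, Pgk1, Ldha, Slc16a1, Tpi1, Pkm and Aldoc kept direction and call in each. Hk1 lost its call in 9, Taldo1 in 8 and Eno1 in 3. Pfkl gained a call without a filter (adjusted p = 0.0401), without carnosine replicate 1 (0.0239) and with length and GC offsets (0.0155). Pgam1 gained one without carnosine replicate 2 (0.0474) and with those offsets (0.0372), as did G6pdx with them (0.0312). With the counts of its copies merged in, Gapdh reversed to a log2 fold change of 0.104 (adjusted p = 0.0151). Members called ranged from 6 to 11 higher, with 1 lower throughout, and 5 were higher at an adjusted p of 0.01. Of all genes, 4.11% (no filter) to 11.6% (length and GC offsets) were higher in the same fits, 5.05% with DESeq2 and 3.94% at 0.01. Genes called numbered 772 higher and 764 lower with DESeq2, 603 and 504 at 0.01, and, with 1 library left out, 932 to 1009 and 801 to 883.

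The labels do not say whether replicate numbers pair the libraries. Correlations of same-numbered deviations were -0.0488, -0.0561 and 0.106, beside -0.0970 to 0.136 for libraries of different numbers. These values cannot show whether libraries shared a mouse or a day. With the replicate block, 946 genes were higher and 810 lower, and 7 members were higher and 1 lower, Taldo1 being lost (adjusted p = 0.0653).

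Branch medians moved with length and GC offsets: uptake to 0.00325, glycolysis to 0.134, lactate to 0.308 and pentose to 0.115. In 5 equal bins of exon length, the shortest genes had a median log2 fold change of 0.0859, with 2 members in that bin, and the others -0.0258 to -0.0100. On FPKM with a pseudocount of 1, glycolysis gave 0.0457 and lactate 0.173. Without 1 library, the medians were -0.0478 to -0.0271, 0.0633 to 0.135, 0.203 to 0.335 and 0.0289 to 0.108. From counts, which ignore length, shares over the 6 libraries became 76.4% for Slc2a3, 54.0% for Hk1, 57.1% for Pfkl, 69.7% for Pfkfb3, 96.5% for Eno1, 88.1% for Ldha and 92.3% for Slc16a1. By merged exon length, Pfkl was 48.6%, Eno1 96.1%, Ldha 77.9% and Slc16a1 93.5%, and Hk3 stood above Hk2 on average. Except where construction shows it, the cause was not tested. Counts limit precision most for Eno2, Slc16a3 and the second Aldoa row.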

Other observations

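Slc16a7, which encodes the pyruvate and lactate carrier MCT2, read 28.6, 12.04 and 11.1 CPM in saline and 30.1, 11.4 and 10.99 in carnosine. Replicate 1 of each group was thus over 2 times as high as the other 2 libraries, and the gene was not called (log2 fold change 0.04, adjusted p = 0.968). Txnip, which responds to glucose and restrains its uptake, read 172, 174 and 276 CPM in saline and 196, 184 and 127 in carnosine. Saline replicate 3 was the highest and carnosine replicate 3 the lowest, and the gene was not called (-0.30, adjusted p = 0.387). Tigar, which lowers fructose 2,6-bisphosphate, read 6.83, 8.64 and 8.34 CPM in saline and 5.89, 6.73 and 6.14 in carnosine, with the groups apart and no call (-0.35, adjusted p = 0.119). Bsg, the chaperone that carries MCT1 to the membrane, read 160, 141 and 154 CPM in saline and 147, 169 and 163 in carnosine, so that it overlapped while its cargo Slc16a1 did not (0.07, adjusted p = 0.485). These 4 genes were chosen after their values were seen.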
